A study of Homo sapiens with 12 samples.

Results

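Silencer tiles of 2 transcription factors, HSF2 and KLF10, were followed through a library of ordered domain pairs that was read in 3 reporter screens. The members are all pairs in which either position holds a silencer tile of HSF2 or KLF10. Each gene had 1 tile, HSF2 tile 13 (gene ENSG00000025156) and KLF10 tile 12 (gene ENSG00000155090), and 396 of the 9983 members of the library held at least 1 of them. Each tile was in 199 pairs, first in some and second in others, and 2 pairs held both. HSF2 lies on chromosome 6 (chr6:122399551-122433119) and KLF10 on chromosome 8 (chr8:102648784-102655725) in GRCh38.p14 of RefSeq. The residues that each tile covers are not stated in the labels or files used here, and no tile sequence is printed for that reason.

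HSF2 is a heat shock factor, a DNA-binding protein of the family that binds heat shock elements. KLF10 is a zinc-finger protein of the Krüppel-like family, induced by TGF-beta and best known as a repressor of transcription. A tile is a short stretch of a protein tested apart from the rest of it. When a silencing domain is brought to a promoter it commonly recruits corepressor complexes that lower the output of that promoter. An activation domain placed beside it recruits coactivators, and a fusion of both asks which output the pair gives.

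The cells were K562, an established line from human chronic myeloid leukaemia, carrying a reporter plasmid. Every library member was a fusion of rTetR, which binds its DNA site only in the presence of doxycycline, to a pair of domains written here as first + second. All cells were selected for 7 days with blasticidin, and doxycycline was given at 1000 ng/mL from day 8 after infection. In the activation screen, cells with the plasmid pDY032 had doxycycline for 2 days. In the repression screen, cells with pJT039 had it for 5 days. In the memory screen, which the labels call unused, cells with pJT039 had 5 days of doxycycline and then 5 days without it. Each screen had a bound and an unbound fraction from 2 replicates that were infected separately, 12 libraries in all. The bound fraction is read here as the fraction with the reporter on, since the study's design text counts ON and OFF fractions. The labels used here state neither how the fractions were separated nor which promoter drives each reporter. Within a screen all members share the cell line, reporter, rTetR and doxycycline and differ in their domains.

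The libraries held between 612999 and 55121999 reads. The smallest, the unbound fraction of activation replicate 2, had a median of 25 reads for the members described here, and up to 1584 in the others. Values from replicate 2 of that screen are therefore less precise than those of replicate 1. Errors cover counting and the spread between the 2 replicates, and reads of PCR copies are not told apart from reads of separate cells. A score is log2 of a member's share of bound reads over its share of unbound reads, with counts under 5 set to 5, and is 0 at the median of pairs of control domains. The 20 controls were 10 random sequences and 10 tiles of DMD (dystrophin, not a nuclear regulator). A negative score means fewer cells with the reporter on. In the activation, repression and memory screens, 181, 179 and 191 of the 199 HSF2 pairs had enough reads to be scored (18, 20 and 8 did not). For KLF10 these numbers were 178, 168 and 185 of 199.

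Beside control domains, both tiles lowered the bound share in the activation screen and far more strongly in the repression screen. In the repression screen the score of HSF2 over 38 control-partnered pairs was -2.92 in replicate 1 and -3.85 in replicate 2, a mean of -3.39 ± 0.66 (SD, n = 2). The score of KLF10 over 34 such pairs was -3.11 and -4.11, a mean of -3.61 ± 0.71 (SD, n = 2). Both replicates were well below 0 for each tile. When the counts of these pairs were summed, HSF2 had a bound share 7.78-fold lower than the control pairs (log2 -2.96, SE 0.18, edgeR adjusted p = 2.9e-15). KLF10 had one 7.86-fold lower (log2 -2.97, SE 0.16, edgeR adjusted p = 1.7e-16). A sum weights deep pairs more than a mean of scores does, and the values differ for that reason. Of the 80 domains that were not controls, 73.8% were called lower in this screen. Among the 23 silencer tiles of the library, KLF10 was the 6th lowest by summed counts and the 4th by mean score, and HSF2 was the 7th by both. In tests on the mean scores of all 253 differences between silencer tiles (28.9% called higher and 48.2% lower), each was called lower than 14 of the 22 others and higher than 1. The difference between HSF2 and KLF10 was 0.22 (limma adjusted p = 0.44).

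Single control partners showed how far this held from pair to pair. In the repression screen the mean scores of the HSF2 pairs with controls ran from -5.64 to 0.23 with a median of -3.59, and 35 of 38 were below 0 in both replicates. Those of KLF10 ran from -5.79 to 0.51 with a median of -3.99, and 31 of 34 were below 0 in both replicates. Pairs of controls without a tile ran from -1.67 to 2.68, so that most tile pairs lay below their whole range and a few did not. The highest HSF2 pair was the one with random 89 second, and the highest KLF10 pair the one with DMD tile 130 second.

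In the activation screen the score of HSF2 over 37 control-partnered pairs was -1.26 in replicate 1 and -0.92 in replicate 2. The score of KLF10 over 35 pairs was -0.89 and -0.63. In both replicates HSF2 was the lower of the tiles. From the summed counts HSF2 fell 1.76-fold (log2 -0.82, SE 0.17, edgeR adjusted p = 0.00012), and KLF10 1.58-fold (log2 -0.66, SE 0.15, edgeR adjusted p = 0.00039). Without replicate 1 the HSF2 value was -0.83 and just missed the threshold (edgeR adjusted p = 0.053), and with KLF10 in the second position alone its value was -0.23 and was not called. From summed counts the effects over both positions and replicates were the lowest 2 among the 23 silencer tiles, and by mean score HSF2 was the lowest and KLF10 the 4th, where 31.2% of the 80 domains were called lower. HSF2 was called lower than 19 of the 22 other silencer tiles and higher than 0, and KLF10 lower than 11 (18.2% and 39.9% of all tile differences were called higher and lower). The difference between HSF2 and KLF10 was -0.33 (limma adjusted p = 0.059), which did not pass the threshold of 0.05.

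After 5 days without doxycycline, most of the lowering seen in the repression screen was no longer measured. There the score of HSF2 with controls was -0.25 and -0.57, and that of KLF10 was -0.40 and 0.22. The KLF10 replicates lay on both sides of 0. From the summed counts HSF2 was still lower (log2 -0.54, SE 0.16, edgeR adjusted p = 0.011), and KLF10 was not called (log2 -0.18, SE 0.15, edgeR adjusted p = 0.38), where 35% of the domains were called lower. The HSF2 call was lost with total counts in place of control pairs (-0.055) and with the 10 DMD controls alone (-0.30). It was also lost without replicate 2 (-0.46, edgeR adjusted p = 0.18) and with the tile in the first position alone (0.0053), while in the second position alone the value was -0.96 (edgeR adjusted p = 0.018). The difference between the tiles in memory was -0.33 (limma adjusted p = 0.52), so that the tiles are not shown to differ there. The change from repression to memory was called for both, at 2.42 for HSF2 (SE 0.24, edgeR adjusted p = 3.3e-10) and 2.80 for KLF10 (SE 0.21, edgeR adjusted p = 2.2e-12), as for 62.5% of the domains. Both screens used the plasmid pJT039, and whether the same infected cells went into both is not stated in the labels.

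Across all partners, each tile lowered the bound share of most pairs in the repression screen. Of the tested pairs, 159 of 179 HSF2 pairs and 150 of 168 KLF10 pairs were called lower than control pairs by edgeR, where 57.7% of all pairs were. edgeR called 0 pairs of either tile higher (0.364% of all pairs were), with 1 HSF2 pair and 0 KLF10 pairs higher at an unadjusted p under 0.05, and 1 and 0 by DESeq2. In the activation screen 26 of 181 and 24 of 178 pairs were called lower, where 7.37% of all pairs were. There 0 pairs of either tile were called higher by edgeR (0 and 1 at an unadjusted p under 0.05, and 0 by DESeq2), while 15.3% of all pairs were called higher. In the memory screen 8 of 191 HSF2 pairs and 1 of 185 KLF10 pairs were called lower, against 6.67% of all pairs, and 0 of either tile higher (0.236% of all pairs) by edgeR. At an unadjusted p under 0.05, 1 pair of each tile was higher, and DESeq2 called 1 HSF2 pair and 0 KLF10 pairs higher. DESeq2 called more pairs lower than edgeR did, with 59 HSF2 pairs in activation and 35 HSF2 and 8 KLF10 pairs in memory. All of these values are relative to pairs of controls. Scaling by total counts moved the median of all pairs by -1.17 in activation, 1.90 in repression and 0.48 in memory, and the HSF2 pairs called lower were then 137, 104 and 3. The counts in the activation and memory screens depended on the replicates: without 1 replicate of either number, between 1 and 4 HSF2 pairs and 2 KLF10 pairs were called lower in activation.

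The strong activators are 5 partners whose pairs with controls rose at least 3 log2 units in the activation screen. They are the transactivation domain of the forkhead factor FOXO3, the LMSTEN domain of the Myb family member MYBA, a coactivator domain of the nuclear receptor coactivator NCOA2, the KRAB domain of the zinc-finger protein ZN473, and tile 22 of ENSG00000179833. With controls their activation values were 3.86, 4.49, 4.05, 3.40 and 3.63 in that order. The tile of ENSG00000179833 is named a silencer tile in the library, and a KRAB domain is best known as a repressor, and both raised the bound share here.

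Neither tile left any of the strong activators above control level in the activation screen. All 10 pairs of HSF2 with these activators, 5 in each order, lay below every control-partnered score of the same activator in both replicates, and so did all 10 pairs of KLF10. HSF2 shifted the activators by -6.07 in replicate 1 and -5.45 in replicate 2, a mean of -5.76 ± 0.43 (SD, n = 2). KLF10 shifted them by -5.51 and -4.89, a mean of -5.20 ± 0.44 (SD, n = 2). A shift is the score of the activator beside the tile minus its median score beside controls. The shift of strong activators was beyond that of control domains by -4.67 for HSF2 (SE 0.12, limma adjusted p = 9.7e-05) and by -4.44 for KLF10 (SE 0.14, limma adjusted p = 1.1e-04). Over all domains and partner classes, 41.2% of such differences were called lower in this screen. For strong activators as partners, the call is not particular to these tiles. Among domains that silence in the repression screen with controls, all but ATF1 (-1.06, limma adjusted p = 0.10) had this difference called lower. The strong activators were chosen by their high values in this screen, while controls lie at 0. The lowest pair of either tile with a control scored -3.90 here, so controls had little room for such a shift. A strong activator brought only to control level would also give a negative difference. The call therefore does not show a stronger action on activators than on controls. The median score of the pairs with strong activators was -1.74 for HSF2 and -1.08 for KLF10. These medians are below those of the tiles beside controls, -1.08 and -0.81.

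The pairs with NCOA2, which binds nuclear receptors and recruits acetyltransferases, show the counts behind these values. NCOA2 before a control had median scores of 4.35 and 4.43 in the replicates. NCOA2 + HSF2 scored -2.14 and -1.39, from 1832 bound and 11823 unbound reads in replicate 1 and 1692 and 176 in replicate 2. The unbound library of replicate 2 was the smallest of all, and the score divides each count by its library's size. HSF2 + NCOA2 scored -2.06 and -1.49, close to the reverse order. KLF10 + NCOA2 scored -0.91 and -1.13, and NCOA2 + KLF10 -1.30 and -0.31. All of these lay below 0 in both replicates and in both orders.

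FOXO3 is a forkhead factor that insulin signalling keeps out of the nucleus. HSF2 + FOXO3 scored -2.04 and -1.79, and FOXO3 + HSF2 scored -1.60 and -1.72. KLF10 + FOXO3 scored -1.71 and -1.57, and FOXO3 + KLF10 scored -0.51 and -0.40. The KLF10 pair with the tile second was the highest of these and still below 0 in both replicates.

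MYBA had the highest value with controls of the 5 activators. HSF2 + MYBA scored -3.15 and -1.74, and MYBA + HSF2 scored -0.46 and -1.70. KLF10 + MYBA scored -1.91 and -1.23, and MYBA + KLF10 scored -2.90 and -0.69. The replicates of HSF2 + MYBA, MYBA + HSF2 and MYBA + KLF10 differed by more than 1 log2 unit, which is wider than for most of the 20 pairs, and each value was below 0.

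The KRAB domain of ZN473 and the tile of ENSG00000179833 were lowered too. HSF2 + ZN473 scored -2.12 and -2.05, and ZN473 + HSF2 scored -1.78 and -0.39. KLF10 + ZN473 scored -1.42 and -1.92, and ZN473 + KLF10 scored -0.54 and -0.68. HSF2 + ENSG00000179833 tile 22 scored -1.94 and -1.47, and the reverse order scored -1.85 and -1.56. KLF10 + ENSG00000179833 tile 22 scored -1.12 and -1.14, and the reverse order scored -1.27 and -0.58. No pair of the 20 had a score above 0 in either replicate.

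The sum of the single effects of tile and activator on the log2 scale lay far above these values. For both tiles all 10 pairs with strong activators were called below that sum by limma, with median deviations of -4.54 for HSF2 and -4.32 for KLF10, where 9.09% of all deviations were called lower. The farthest were HSF2 + MYBA at -5.93 and MYBA + KLF10 at -5.89. For these activators the sum stays above control level, so a pair brought only to control level would lie below it too. Against control pairs, edgeR called 6 of the 10 HSF2 pairs lower (7.37% of all pairs were), with log2 values of all 10 from -2.45 to -1.04. It called 4 of the 10 KLF10 pairs lower, with values from -1.92 to -0.45.

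Among the 36 domains that silence in the repression screen with controls, HSF2 had the 4th lowest shift of strong activators in the activation screen and KLF10 the 10th. The lower ones were the chromodomain of MPP8, a reader of methylated histone H3 (-6.16), and the KRAB variants Q3KP31 (-5.83) and P21506 (-5.80). The MPP8 shift is a mean over 7 scored pairs, and those of both tiles and these KRAB variants are over 10. Comparisons with MPP8 thus do not cover the same activators and orders. Of 630 differences between these domains, 37.5% were called higher and 30.3% lower. HSF2 was called lower than 24 of the 35 others and higher than 0. KLF10 was called lower than 18 and higher than 1, which was MPP8. The difference between HSF2 and KLF10 was -0.56 (limma adjusted p = 0.13). These differences share activators and controls and are not independent of each other.

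Domains with like or lower levels beside controls in the repression screen varied in their shift of the strong activators. MPP8, with a mean score of -3.83 beside controls there, had the lowest shift of all, over its 7 scored pairs. KRAB Q3KP31 and P21506 (mean scores -4.83 and -4.99) had shifts just below that of HSF2. None of these was called as different from HSF2. The domains named next had shifts like those of the tiles or weaker. HERC2 Cyt-b5, from a large ubiquitin ligase, had a mean score of -3.49 beside controls in the repression screen. It shifted the strong activators by -5.16 (KLF10 minus it -0.04, limma adjusted p = 0.92). ENSG00000163602 tile 11 had a mean score of -4.34 beside controls there and was called lower than both tiles. HSF2 minus it was 0.95 (limma adjusted p = 0.00073) and KLF10 minus it 0.73 (limma adjusted p = 0.0097). It shifted the strong activators by -5.35, which was not called as different from the shift of either tile. ENSG00000100307 tile 18 lay lower than both tiles beside controls in the repression screen by summed counts (log2 -3.85). By mean score (-3.84) it was not called as different from HSF2 (HSF2 minus it 0.45, limma adjusted p = 0.12) or from KLF10 (limma adjusted p = 0.43). It shifted the strong activators by -4.70, less than HSF2 did (HSF2 minus it -1.06, SE 0.34, limma adjusted p = 0.003). From KLF10 that shift was not called as different (limma adjusted p = 0.17). ENSG00000076108 tile 118 had a mean score of -3.09 beside controls, not called as different from either tile. It shifted the strong activators by -3.11 and ranked 28th. The least shifts among the 36 were those of ENSG00000069812 tile 10 (-1.88) and of TERF1, a telomere-binding protein (-1.70).

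In the repression screen, where the activators themselves lowered the bound share beside controls by values from -1.99 to -1.21, both tiles lowered them further. HSF2 shifted the strong activators by -1.84 ± 0.13 (SD, n = 2) and KLF10 by -2.68 ± 0.47 (SD, n = 2). These shifts were smaller than those of controls by 1.55 for HSF2 (SE 0.24, limma adjusted p = 0.020) and by 0.92 for KLF10 (SE 0.14, limma adjusted p = 0.020), where 34.7% of such differences were called higher. Most of the silencing domains had this difference called higher too. With pairs of fewer than 20 reads left out, a setting chosen after the data were seen, the KLF10 difference missed the threshold (0.92, limma adjusted p = 0.060). All 10 pairs of each tile were called lower than control pairs by edgeR. Of these, 5 of the HSF2 pairs and 6 of the KLF10 pairs lay below every control-partnered score of the same activator in both replicates. HSF2 ranked 20th and KLF10 11th of the 36 domains by this shift. HSF2 was called lower than 2 and higher than 9 of the 35 others, and KLF10 lower than 14 and higher than 0 (23.7% and 21.4% of all such differences were called higher and lower). For memory the shifts were -0.29 for HSF2 and -0.65 for KLF10. No class difference in that screen passed limma's threshold, 0 of 320.

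The partners with a weaker rise beside controls, between 1 and 3 log2 units, were shifted in the activation screen by -2.64 by HSF2 and by -2.09 by KLF10. These are beyond the shift of controls by -1.55 and -1.33, and both differences were called by limma. This class too was chosen by its rise in this screen, and the limit given for strong activators holds here. Of single pairs, 11 of 13 with HSF2 and 9 of 12 with KLF10 were called as shifted lower, where 9.96% of all shifts were. These partners include CRTC2, a coactivator of CREB, SMCA2, an ATPase of SWI/SNF, and the WW domain protein KIBRA. Partners that neither rose nor silenced were shifted by -1.22 and -0.98, which was not called as different from controls.

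Beside partners that silence by themselves, the tiles added little. In the activation screen HSF2 shifted them by -0.11 and KLF10 by 0.05, which were above the shift of controls by 0.98 and 0.81, and both differences were called by limma (29.7% of such differences were called higher). There 5 of 59 HSF2 pairs and 1 of 60 KLF10 pairs were called above the sum, where 7.14% of all deviations were. On the repression reporter HSF2 shifted them by -0.62 and KLF10 by -0.85, less than it shifted controls by 2.76 in both cases, and both differences were called by limma. Of single pairs, 11 of 58 with HSF2 and 5 of 54 with KLF10 were called as shifted lower, where 24.2% of all shifts were. The median score of these pairs was -4.04 for HSF2 and -4.15 for KLF10, where the sum of both domains would give -7.12 and -7.42. Of the pairs, 41 of 58 with HSF2 and 43 of 54 with KLF10 were called above the sum, where 19.7% of all deviations were called higher. These median sums lie below the lowest mean score of any silencing domain beside a control in this screen (-6.65). Pairs could hardly reach such sums, so these calls cannot tell a lack of addition from a lower limit of the scores. Set against the stronger of the 2 single effects in place of the sum, the median deviation was -0.10 for HSF2 and -0.04 for KLF10, with 0 pairs called above it. Partners that neither rose nor silenced were shifted by -3.23 and -3.05, which was not called as different from controls (limma adjusted p = 0.45 and 0.093).

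Families of partners were then read in the repression screen, where 57.7% of all pairs, 88.8% of the tested HSF2 pairs and 89.3% of the tested KLF10 pairs were called lower. With the KRAB repressors, which recruit the corepressor TRIM28 (KAP1), 6 of 6 HSF2 pairs and 5 of 5 KLF10 pairs were called lower, with medians of -4.90 and -4.47. The lowest HSF2 pair of the screen was KRAB Q3KP31 + HSF2 at -6.38. KRAB P21506 + KLF10 was at -6.22 and KRAB M0QYP0 + KLF10 at -5.88. With HP1 and chromodomain proteins, readers of methylated histones, 5 of 6 and 4 of 5 tested pairs were called lower, of which MPP8 + HSF2 was at -5.74. With Polycomb proteins the counts were 5 of 6 and 5 of 5, and with SUMO and E3 ligase domains 4 of 4 and 4 of 4, of which SUMO3 + KLF10 was at -6.07. KLF10 + ID2, a helix-loop-helix protein without a DNA-binding region, was the lowest KLF10 pair at -6.35.

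With WW domains, which bind proline-rich stretches, 10 of 10 and 7 of 7 tested pairs were called lower. With SWI/SNF subunits, which remodel nucleosomes, 4 of 6 were called lower for each tile. With coactivator domains 3 of 4 and 4 of 4 were, and with the other silencer tiles 38 of 39 and 37 of 39. Most of these shares lie near those of each tile over all partners and rest on few pairs, and no family was tested against the others. Low pairs of HSF2 with other silencer tiles were HSF2 + ENSG00000084093 tile 101 (-5.84) and HSF2 + ENSG00000102974 tile 12 (-5.72).

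At the other end, the highest pairs still called lower in the repression screen included 3 with ITCH. HSF2 + ITCH, a HECT ubiquitin ligase with WW domains, was at -1.46, KLF10 + ITCH at -1.80 and ITCH + KLF10 at -1.87. HSF2 + ZN473 was at -1.53 and HSF2 + DMD tile 31 at -1.83. KLF10 + DMD tile 297 was at -1.23 and KLF10 + SCMH1, a Polycomb protein, at -1.93. With total counts in place of control pairs, the 3 pairs with ITCH lay at 0.44, 0.10 and 0.03, and HSF2 + ZN473 at 0.37. Other silencing domains also had higher medians beside ITCH, at -1.29 and -1.66 in the 2 orders.

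Some pairs of the tiles were not called in the repression screen, and the partners described next were singled out after their values were seen. For HSF2, 20 of 179 tested pairs were not called, and for KLF10 18 of 168. Of partners tested in both orders, those with no call in either were 4 for HSF2 (CXXC1, DMD tile 182, DPF1 and random 89) and 6 for KLF10 (BTK, DMD tile 130, DPF1, DPY30, ENSG00000174197 tile 238 and random 89). DPF1, by its Requiem_N domain, and random 89 were on both lists. Not being called does not place a pair at control level: the HSF2 pairs with CXXC1, a PHD finger protein, had mean scores of -2.58 and -3.07.

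Random 89, a control sequence, gave scores near 0 with both tiles in both orders. Random 89 + HSF2 scored -0.10 and -0.11 in the repression screen, and HSF2 + random 89 scored -0.03 and 0.49. Random 89 + KLF10 scored -0.01 and 0.50, and KLF10 + random 89 scored 0.28 and -0.63. Every value lay within the range of control pairs. The reads were deep, with 8064 bound and 475 unbound for KLF10 + random 89 in replicate 1. The other 34 silencing domains beside random 89 had medians of -0.18 with random 89 second and -0.54 with it first, and 10 and 13 of 34 were below -1. Activation was missing beside it too. In the activation screen the strong activators had median scores of 0.05 with random 89 second and -0.28 with it first. These were lower than beside any other control in the same order, and the reason was not tested. Without random 89 among the controls, the effects in the repression screen were -3.48 for HSF2 and -3.48 for KLF10.

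DPF1 is a subunit of a neuronal SWI/SNF complex. DPF1 + HSF2 scored -0.63 and -1.12 in the repression screen, and HSF2 + DPF1 scored 1.89 and 0.91. DPF1 + KLF10 scored -0.53 and 0.47, and KLF10 + DPF1 scored -0.23 and -0.31. The first of these was low in both replicates and the second high, and none was called. Other silencing domains beside DPF1 had medians of -0.11 with DPF1 second and -0.69 with it first, and 8 of 32 and 13 of 31 of them were below -1. Most other silencing domains thus scored above -1 beside DPF1 and beside random 89.

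Some partners were near 0 with only 1 of the tiles, a difference that was not tested. Beside BTK, a tyrosine kinase represented by its SH3 domain, the log2 values were 0.10 and 0.53 for KLF10, in the order BTK first and BTK second, and -2.37 and -3.21 for HSF2, both called. Beside DMD tile 182 HSF2 was at -0.44 and 0.13, while KLF10 + DMD tile 182 was at -3.92. Across partners and orders shared by both tiles, the scores of HSF2 and KLF10 had a Pearson r of 0.35 over 169 in activation, 0.57 over 159 in repression and 0.39 over 180 in memory. These points share libraries and read depth, and r is given as a description.

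The 2 largest deviations of HSF2 pairs from the sum in the repression screen were positive. YAF2 + HSF2 was above the sum by 7.36, with scores of -2.51 and 0.60 that differed widely between replicates. HXA13 + HSF2 was above it by 5.87, with scores of -0.15 and 1.60 from 2 to 125 reads a library. Both of these rest on few reads or on replicates that disagree. HSF2 + KIBRA was the single pair of either tile called below the sum in that screen (3.53% of all deviations), with a deviation of -1.89 and scores of -5.22 and -6.23.

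The called pairs of the activation screen had partners of every class, strong activators among them. The lowest called HSF2 pair was CREM + HSF2 at -2.53 (SE 0.69, edgeR adjusted p = 0.023), where CREM is a bZIP factor of the cAMP response. It was followed by HSF2 + MPP8 at -2.12, HSF2 + ZN473 at -2.08, ENSG00000085224 tile 242 + HSF2 at -1.99 and PYGO1 + HSF2 at -1.87, PYGO1 being a PHD finger protein of Wnt signalling. The lowest KLF10 pair was KLF10 + WBP4, a WW domain protein of splicing, at -2.42 (SE 0.48, edgeR adjusted p = 0.0037). KLF10 + KLF10 was at -2.00, KLF10 + ZFP28 at -1.70, and KLF10 + random 411 and KLF10 + APC16 both at -1.68.

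Position made no difference that passed the test for either tile with control partners. In the activation screen the score with the tile first minus that with the tile second was 0.44 for HSF2 (SE 0.13, limma adjusted p = 0.27) and -0.38 for KLF10 (SE 0.14, limma adjusted p = 0.28). For repression it was 0.17 and -0.11. For memory it was 1.00 for HSF2 (SE 0.46, limma adjusted p = 0.54), at 1.84 in replicate 1 and 0.16 in replicate 2, and 0.23 for KLF10. Of 79 domains 0 were called for position in any screen by limma, and HSF2 in activation had an unadjusted p of 0.046. The counts of called pairs were nonetheless uneven. All 24 KLF10 pairs called in activation had the tile first, the pair of the tile with itself included, and 0 of 83 with the tile second were called. KLF10 second-position control pairs had fewer reads, 368 against 1279 summed in the smallest library and 26206 against 77962 in the unbound library of replicate 1. The part of depth in that count was not tested. HSF2 had 9 called pairs first and 17 second in activation, and all 8 called in memory had it second, with 0 of 94 first.

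Each tile paired with itself, and KLF10 with HSF2, gave low scores in the repression screen. HSF2 + HSF2 scored -4.87 and -5.01 (log2 -4.96, SE 0.81) and KLF10 + KLF10 scored -4.92 and -4.76 (log2 -4.86, SE 0.67). The sum of 2 single effects lay lower still, by 2.22 and 2.97, and below any mean score of a silencing domain beside a control there. KLF10 + HSF2 scored -3.80 and -3.68 and was called, and HSF2 + KLF10 had too few reads to be tested there. For activation, HSF2 + HSF2 scored -2.06 and -2.07 (edgeR adjusted p = 0.068), and KLF10 + KLF10 scored -2.23 and -1.79 and was called. The memory replicates of the same-tile pairs lay on both sides of 0, at 3.14 and -1.12 for HSF2 and 2.83 and -0.55 for KLF10.

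Of the 8 HSF2 pairs called in the memory screen, 4 had silencers, 2 controls and 2 other domains as partners. The lowest was DPF1 + HSF2 at -4.63 (SE 0.97, edgeR adjusted p = 0.018), with scores of -4.31 and -4.95. It was at -0.89 in the repression screen, and the change from repression to memory was -3.74 (edgeR adjusted p = 0.030), the single change called lower among the HSF2 pairs (0.571% of all pairs). With DPF1 first, the other silencing domains had a median of -2.83 in memory, and 27 of 31 were below -1. ENSG00000100307 tile 18 + HSF2 was at -2.90 (edgeR adjusted p = 0.0038), and KRAB M0QYP0 + HSF2 at -2.21 (edgeR adjusted p = 0.0039). CBX1 + HSF2, with the chromoshadow domain of an HP1 protein, was at -2.25. The remaining called pairs were random 297 + HSF2 (-1.99), ENSG00000088305 tile 10 + HSF2 (-1.92), random 205 + HSF2 (-1.16) and ENSG00000141644 tile 47 + HSF2 (-1.14). The single KLF10 pair was KLF10 + HXA13 at -4.44 (SE 1.05, edgeR adjusted p = 0.032), with scores of -4.38 and -4.50. Without 1 replicate of either number, between 0 and 3 HSF2 pairs and 0 KLF10 pairs were called lower.

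Most pairs rose from repression to memory. Of HSF2 pairs 117 of 179 and of KLF10 pairs 125 of 167 were called higher in memory than in repression by edgeR, where 43.1% of all pairs were. No deviation from the sum and no shift of a partner passed limma's test in the memory screen, 0 of 5918 and 0 of 11777 over the library, with 454 and 1497 at an unadjusted p under 0.05.

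Over shared partners, orders and screens, the domain most like HSF2 tile 13 was KLF10 tile 12 (Pearson r of mean scores 0.82 over 508 values), followed by HERC2 Cyt-b5 (0.81 over 541) and ENSG00000163602 tile 11 (0.80 over 522). For KLF10 tile 12 the most like were ENSG00000102974 tile 12 (0.87 over 516), ENSG00000163602 tile 11 (0.87 over 503) and ENSG00000111642 tile 38 (0.86 over 509). The values share the 3 screens' levels and their libraries, and r is given as a description.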

How the data were processed

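Reads of 12 libraries were turned into counts per library member by the authors: per the series' design text, both domain reads were trimmed by 30 bases at each end and aligned with Bowtie2 (also named, with build hg38, in the submitters' processing notes). The deposited values are raw counts, to which the minimum of 50 reads in both fractions was not yet applied; here it was applied with the floor of 5 reads. Counts were scaled by TMM over pairs of 2 controls and fitted with edgeR 4.0.16 (quasi-likelihood, R 4.3.3), all 12 libraries in 1 fit, with each replicate of a screen as a block and 1 bound-versus-unbound term per screen. Shifts, deviations from the sum, position and tile differences used limma 3.58.1 on replicate scores. On simulated counts with 200 of 8699 members lowered 8-fold, edgeR recovered 86.5% in activation, 95% in repression and 95% in memory, with 2.81%, 2.06% and 2.06% of its calls false. For limma 11.2%, 5.88% and 1.55% of calls were false, more than the 5% aimed at in activation and repression. The simulated members had 1 common spread and few were changed, where 57.7% of real pairs were called lower in repression. Limma was run there on scores of members, and not on shifts, deviations from the sum, or class, position and tile differences. These percentages may therefore not carry over to the tests reported here. P-values were adjusted (Benjamini-Hochberg) over all members or domains. The tables were read with Python 3.11.15, pandas 2.3.3 and numpy 2.4.6. DESeq2 1.42.0, other scalings, floors and control sets, and each replicate left out were alternatives. Same-numbered fractions come from the same infected cells, which is where the pairing comes from; their deviations correlated at 0.19, 0.33 and -0.11 (activation, repression, memory) over 3264 members.

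The 20 controls leave out DMD tile 31, which activated. Named were every pair with a strong activator, the 5 lowest and 5 highest called pairs for each tile and screen, the 5 largest called deviations and the 3 most alike domains; the text gives those with the most reads or largest values. Members, lists and classes were chosen with earlier results of these data known. P-values rest on the spread between 2 separately infected replicates, which limma moderates over all tests of a kind. Between silencer tiles, limma's SE was the same for the differences in activation (0.16) and in repression (0.27). Between silencing domains in their activator shift, it was 0.34 throughout activation. Those p-values use a spread pooled over differences that are not independent, and not the tested domain's own spread.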

Additional observations from a re-analysis of the deposited data

Results flagged for a closer look

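A difference between screens stood out for both tiles beside control partners. The log2 bound share of HSF2 tile 13 was higher in the memory screen than in the repression screen by 2.42 (edgeR adjusted p = 3.3e-10), and that of KLF10 tile 12 by 2.80 (edgeR adjusted p = 2.2e-12). Both replicates of each tile were higher in memory.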

How the results depend on the processing

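Alternatives to the values that answer a comparison numbered 604, of which 531 were labelled unchanged. Of the others, 49 counts or values moved, 9 lost the call, 9 gained it and 6 reversed. The unchanged label does not always mean a kept direction and call. Class and tile differences with a replicate left out had no p-value, so no call could be kept or lost there. For weaker activators in memory, the HSF2 difference from controls was 0.27, and -0.17 without replicate 2, yet was labelled unchanged. Counts could also differ under that label. The strong-activator shifts in activation kept their calls under every alternative that gave a p-value. Leaving out a replicate gave none for them, so those alternatives cannot show whether the calls hold. Where no reason is given, the cause was not tested.

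Total counts moved the median of all pairs by -1.17, 1.90 and 0.48 (activation, repression, memory) and TMM over all members by -0.02, 2.04 and 0.54. For memory, the HSF2 effect was then -0.055 and 0.0065, and the KLF10 effect 0.30 and 0.37. Pairs called lower in activation were 137 for HSF2 and 123 for KLF10 with total counts. In repression the HSF2 pairs called lower were 104 and 101, those higher 4 and 5, and the KLF10 pairs higher 8 and 11. In memory 3 and 3 HSF2 pairs and 0 and 0 KLF10 pairs were lower. From repression to memory 29 and 30 HSF2 pairs and 63 and 66 KLF10 pairs were higher. Repression pairs that reversed lay, with total counts and with TMM over all members, at 0.073 and 0.21 (HSF2 + DMD tile 31), 0.44 and 0.58 (HSF2 + ITCH), 0.37 and 0.50 (HSF2 + ZN473), 0.033 and 0.17 (ITCH + KLF10), 0.67 and 0.80 (KLF10 + DMD tile 297), and 0.10 and 0.23 (KLF10 + ITCH). With TMM alone ENSG00000174197 tile 238 + HSF2 was at 0.033 and KLF10 + SCMH1 at 0.11.

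The HSF2 effect in memory was also lost with DMD controls only (-0.30), with limma on mean scores (-0.41) and with the tile first only (0.0053). That of KLF10 in activation was lost with the tile second only (-0.23). DESeq2 called 59 HSF2 pairs lower in activation, 1 higher in repression, and in memory 35 lower and 1 higher, with 8 KLF10 pairs lower.

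Leaving out 1 replicate gave HSF2 effects from -0.88 to -0.83 in activation, where the call was lost without replicate 1, and from -0.63 to -0.46 in memory, where it was lost without replicate 2. Pairs called lower were then 1 to 4 (HSF2) and 2 (KLF10) in activation and 0 to 3 and 0 in memory, with 0 to 1 higher for each. From repression to memory 72 to 124 HSF2 pairs were higher. The same-tile pairs in memory ran from -1.12 to 3.10 (HSF2) and from -0.55 to 2.79 (KLF10).

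Without the replicate block, 1 HSF2 pair was called higher in repression in place of 0, and no other count of calls or single-tile call changed by more than 1.5 times or across the threshold. With memory replicate numbers crossed, chosen after seeing the data, 2 KLF10 pairs in place of 1 and 10 HSF2 pairs in place of 8 were called lower in memory.

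For weaker activators in repression, the HSF2 difference from controls lost its call with 21 controls (0.025) and without pairs under 20 reads (1.41), an alternative also chosen after seeing the data, and in memory it was -0.11 with medians over partners. The KLF10 difference gained a call with floors of 1 and 20 reads (0.82 and 0.79), 21 controls (1.24), medians (1.10) and a strong class from 2 (0.73). With silencers in memory the HSF2 difference was -0.014 with medians over partners. Without pairs under 20 reads KLF10 with strong activators in repression lost its call (0.92), and with the neither class in activation gained one (-0.36). In repression the neither class gained one with a floor of 20 (0.53) or without random 89 (0.91), an alternative chosen after seeing the data. The HSF2 minus KLF10 difference in activation passed with a floor of 20 (-0.35).

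Silencer pairs above the sum in activation were 1 and 9 for HSF2 with floors of 1 and 20, and 2 for KLF10 with 20. Strong-activator pairs above it in repression were 4 and 5 with a floor of 20, 1 for KLF10 with a floor of 1, and 1 and 1 without random 89. Against the stronger effect, counts above were 1 and 0 (silencers, activation), 0 and 0 (silencers, repression) and 0 and 0 (strong activators, repression), and the repression medians -0.10 and -0.037 (silencers) and -0.33 (KLF10 with strong activators). With a floor of 1, 7 silencer partners were shifted lower by HSF2 in repression.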
